A study of Mus musculus with 7 samples.

Results

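The genes described here are 39 S phase and DNA replication genes, taken by symbol from a fixed list of mouse gene names. All 39 were in the deposited expression table of 55357 genes and all 39 had at least 1 TPM in at least 3 of the 7 libraries, so none was lost to the filter on low values. TPM is an abundance per transcript length with an equal sum in every library, so levels of different genes can be compared. The lowest of the 273 member values was 7.19 TPM and the highest was 428.05 TPM.

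The libraries came from CD8 T cells sorted as live CD45+ CD8+ cells from subcutaneous MCA205 tumours on day 14 after implantation, with at least 30000 cells per condition. MCA205 is a fibrosarcoma cell line from C57BL/6 mice. ENT1KO libraries (Slc29a1-/- recipients, replicates 11, 12, 14 and 15) were compared with WT libraries (C57Bl/6 recipients, replicates 1, 2 and 3). The tumour cells were implanted alike in both groups, whatever the genotype of the host, and the allele was absent from the host and not only from its T cells. The sources used here give no age, no sex and no account of which part of the gene is deleted. Nothing in the labels ties a sample to its own animal, and p-values therefore speak only for the variation among these 7 libraries. ENT1, the product of Slc29a1, is a membrane transporter of nucleosides such as adenosine, and the series asks whether its uptake of adenosine limits pyrimidine supply and T cell function in tumours, and S phase is the point where deoxynucleotides are consumed.

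DNA replication begins when the origin recognition complex, Cdc6 and Cdt1 load the Mcm2-7 helicase onto DNA in G1. Cdc45 and the GINS complex then activate the helicase, primase and the DNA polymerases copy both strands behind it, and the clamp Pcna holds the polymerases on the template. Most of these genes are transcribed in late G1 and S phase under E2F factors, so that in a mixed sample their mRNA level rises with the share of cycling cells, and activated CD8 T cells are among the fastest dividing cells of the adult. In bulk RNA, fewer cycling cells and less mRNA per cycling cell cannot be told apart.

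Each library held between 18624318 and 19660792 gene-assigned reads, taken from the smallest step between its normalized counts, a narrow range of depth. Slc29a1 was at 14.8 ± 2.001 TPM in ENT1KO and 53.2 ± 4.94 TPM in WT (SD, n = 4 and 3), and its values did not overlap. The sorted identity was present in all libraries but unequal. The 14 CD8 T cell identity genes, led by Trac and Trbc2, summed to between 10361 and 12620 TPM in ENT1KO and between 3214 and 7834 TPM in WT, and all 14 passed as higher. Of 16 macrophage and monocyte genes, led by Lyz2 and Apoe, all were lower, with sums of 118 to 1344 TPM in ENT1KO and 3539 to 5320 TPM in WT. Of 20 fibroblast and tumour cell genes, led by S100a4 and Postn, 18 of 19 tested were lower. Without S100a4, which T cells also express, that list summed to between 7.1 and 908 TPM in ENT1KO and between 4362 and 8279 TPM in WT. NK cell markers (5 genes, led by Tyrobp and Klrb1c) summed to 32.4 to 98.2 TPM in ENT1KO and 192 to 286 TPM in WT, and 3 of the 5 passed as lower. Tyrobp made up most of the WT sum, at a mean of 46.3 TPM in ENT1KO and 193.7 TPM in WT. In ENT1KO replicates 11, 12, 14 and 15 it stood at 42.0, 46.8, 75.3 and 21.1 TPM. The macrophage and monocyte sums had the same order, at 451, 556, 1344 and 118 TPM, and the part of those cells was not tested. Klra4 and Klra8 also passed as lower, at means of 1.845 and 0.405 TPM in ENT1KO and 23.5 and 1.05 TPM in WT, low levels for Klra8. Klrb1c differed in the other direction, at 14.05 and 9.37 TPM, and did not pass (log2 0.53, limma adjusted p = 0.0869). B cell markers (5 genes, led by Cd79b and Cd79a) summed to 4.8 to 7.3 TPM in ENT1KO and 3.9 to 6.1 TPM in WT. CD4 and regulatory T cell markers (4 genes, led by Ikzf2 and Cd40lg) summed to 15 to 37.8 TPM in ENT1KO and 14.6 to 24.4 TPM in WT. Within that list Ikzf2 did not pass and Cd40lg passed as higher (limma adjusted p = 0.0409). Cd4 and Foxp3 passed as lower (limma adjusted p = 0.0352 and 0.0113). Cd4 averaged 1.17 TPM in ENT1KO and 2.57 TPM in WT, and Foxp3 0.58 and 1.56 TPM. Tumour and myeloid cells can also replicate their DNA, and their part in the levels below was not tested.

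Most replication genes did not pass the test between the genotypes. Of the 39 members, 2 were higher (Rpa2 and Slbp) and 2 were lower (Gins2 and Chaf1a) in ENT1KO at a limma-trend adjusted p under 0.05 over all 13798 genes tested. This was 10.3% of the members, where 50.6% of all genes tested passed, 27.5% higher and 23.1% lower. The groups did not overlap for 6 members, 3 with ENT1KO above WT (Cdt1, Rpa2, Slbp) and 3 with ENT1KO below WT (Cdc45, Gins2, Chaf1a), where 55.2% of all genes did not overlap, 30.3% above and 24.9% below. The median member difference was 0.11 on the log2(TPM + 1) scale, ENT1KO minus WT, beside 0.145 for all genes, and 16 members lay above that all-gene median and 23 below it. For the 35 members that did not pass, differences ran from -0.48 to 0.44, and all 35 limma 95% intervals stayed within a 2-fold change in either direction, 22 of them within 1.5-fold. These intervals do not show that the levels were equal. With the mean log2 level of the fibroblast and tumour or of the macrophage list as a covariate in limma, levels that themselves move with genotype, 0 members passed and 0 had an unadjusted p under 0.05. The same fits left 0 and 3 of all genes passing, with 1237 and 1721 at an unadjusted p under 0.05.

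**Figure D1:**
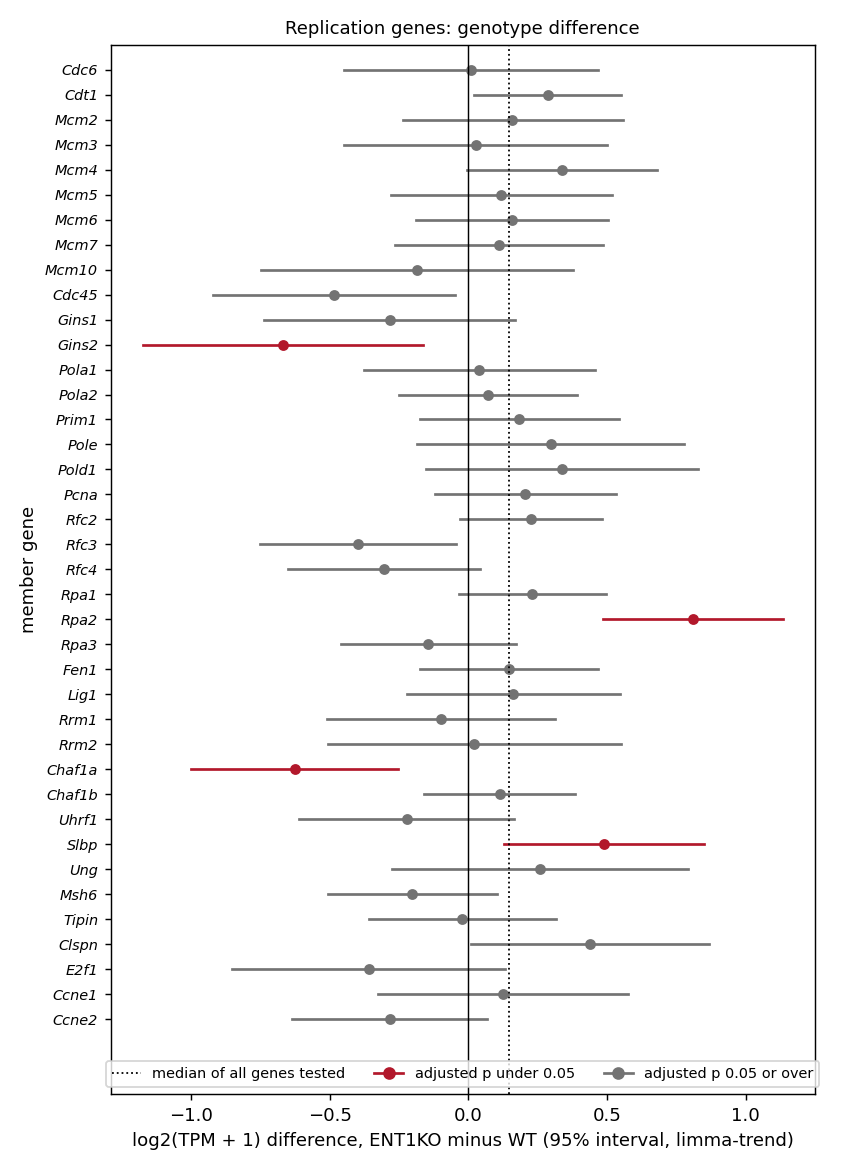
Difference of each member in log2(TPM + 1), ENT1KO minus WT (x axis), for the 39 genes (rows, ordered by role), with limma-trend 95% intervals; red marks an adjusted p under 0.05 and the dotted line is the median of all genes tested. Rpa2 and Slbp lie to the right, Gins2 and Chaf1a to the left, and the other 35 points lie between -0.48 and 0.44.

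Summed over the 39 members, the libraries held 2006, 1989, 2700 and 2627 TPM in ENT1KO replicates 11, 12, 14 and 15, against 2224, 1989 and 2161 TPM in WT replicates 1, 2 and 3. ENT1KO replicates 14 and 15 stood above every WT library, and ENT1KO replicates 11 and 12 stood within the WT range. The group means were 2331 ± 386 TPM in ENT1KO and 2125 ± 122 TPM in WT (SD, n = 4 and 3), a ratio of 1.10. The spread within ENT1KO exceeded the distance between the means.

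That spread was shared by nearly all members. Within ENT1KO, replicate 14 held the highest level of 28 members and replicate 15 that of the other 11. Replicate 12 held the lowest level of 22 members, replicate 11 that of 16, and replicate 14 that of 1, Rpa2. Over all genes tested, replicates 11, 12, 14 and 15 held the highest ENT1KO value for 27.5%, 19.85%, 32.0% and 20.7% of genes, and the lowest for 21.0%, 22.6%, 22.6% and 33.8%. The median SD of a member on the log2(TPM + 1) scale was 0.27 in ENT1KO and 0.13 in WT, beside 0.19 in ENT1KO and 0.235 in WT for all genes. The SD was larger in ENT1KO than in WT for 33 of 39 members, where that held for 43.5% of all genes. The marker lists had their own order over these libraries. The fibroblast and tumour list without S100a4 summed to 70.6, 187, 908 and 7.1 TPM in ENT1KO replicates 11, 12, 14 and 15, and the CD8 T cell identity list to 10748, 12620, 10361 and 11200 TPM. Replicates 14 and 15, with the highest replication gene sums, had the highest and the lowest fibroblast and tumour sums of the ENT1KO group. The part of other cells in the spread of the members was not tested.

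**Figure D2:**
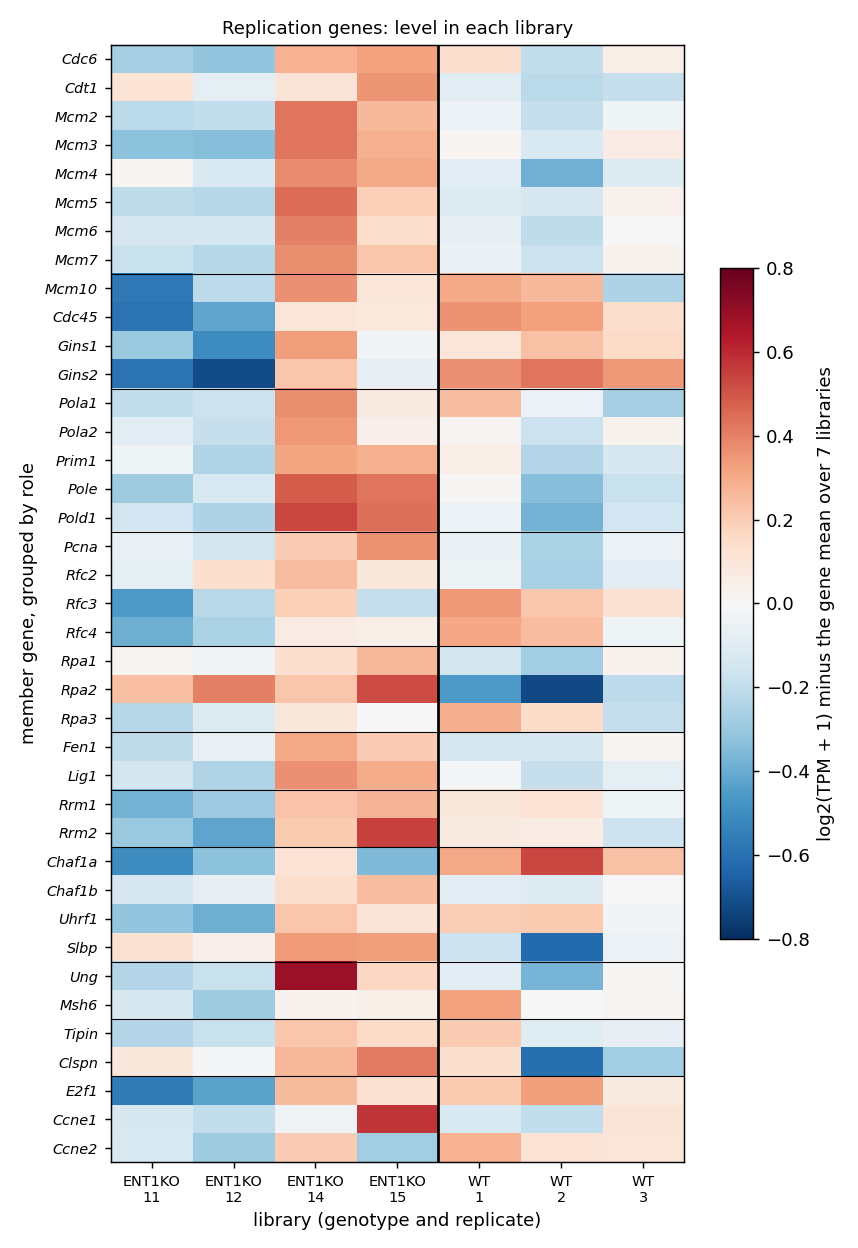
Level of each member (rows, grouped by role) in each library (columns, ENT1KO replicates left of WT replicates), as log2(TPM + 1) minus the gene's mean over the 7 libraries. The columns of ENT1KO replicates 11 and 12 are mostly blue and those of 14 and 15 mostly red, while Rpa2 is red in all 4 ENT1KO columns.

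Origin licensing genes did not pass the test. Mcm6, a subunit of the helicase ring, was the most abundant of the Mcm2-7 genes, at 131.1, 130.5, 190.65 and 158.7 TPM in ENT1KO and 137.6, 124.8 and 143.9 TPM in WT. Only ENT1KO replicates 14 and 15 lay above the WT values. The other ring genes, Mcm2, Mcm3, Mcm4, Mcm5 and Mcm7, averaged between 71.95 and 104.7 TPM in ENT1KO and between 63.2 and 95.5 TPM in WT, and the 6 ring genes had log2 differences between 0.03 and 0.34. The largest was that of Mcm4, at 86.2 ± 14.1 TPM in ENT1KO and 67.7 ± 7.53 TPM in WT (SD, n = 4 and 3), with a limma adjusted p of 0.089 that became 0.0493 without ENT1KO replicate 12. The ratio of Mcm5 to Mcm2 within a library ran from 1.235 to 1.31 in ENT1KO and from 1.24 to 1.36 in WT, with overlap. That of Mcm4 to Mcm3 ran from 0.79 to 1.04 in ENT1KO and from 0.679 to 0.755 in WT, without overlap. These ratios, like the subunit ratios below, were chosen after the values were seen and were not tested.

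Neither loading factor passed. Cdt1, which brings the helicase to origins, stood at 42.5, 37.5, 42.25 and 50.4 TPM in ENT1KO, against 36.9, 33.8 and 34.4 TPM in WT. Its lowest ENT1KO value lay just above its highest WT value, and its difference of 0.29 did not pass (limma adjusted p = 0.0676, and 0.0464 without ENT1KO replicate 12). Cdc6, the ATPase that works with it, stood at 9.35, 8.96, 14.1 and 14.5 TPM in ENT1KO and 12.6, 9.84 and 11.9 TPM in WT, with a difference of 0.01 and a 95% interval from -0.45 to 0.47.

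Promoters are shown here because licensing genes are known E2F targets. The promoter table of RefSeq (build GRCm38.p6, 250 bases before to 50 bases after the start) held 32 of the 39 members. An E2F site was taken as TTTCCCGC, TTTCGCGC, TTTGCCGC or TTTGGCGC on either strand, with overlapping matches counted separately, and a CCAAT box as CCAAT on either strand. An E2F site was found for 13 of 32 members (40.6%) and for 465 of 9906 tested genes in that table (4.69%), and a CCAAT box for 21 members (65.6%) and for 43.3% of the tested genes. More than 1 E2F site was found for 5 members, which were Mcm3, Mcm5, Mcm6, Mcm7 and Rfc3, and for 0.232% of tested genes. The promoters of Mcm6, Mcm7 and Mcm3, those with the most E2F sites (ties by mean level), are printed 5′ to 3′ with that of Rpa2, the member with the largest rise, which holds 3 CCAAT boxes and no E2F site in this window. This contrast depends on the letters searched: without the first T of each E2F site, the window of Rpa2 holds 1 match and those of Mcm6, Mcm7 and Mcm3 hold 5, 3 and 3, and 68.75% of members match beside 19.4% of tested genes. Capitals mark E2F sites and CCAAT boxes.
Mcm6 (GRCm38.p6, chr1:128359656-128359955, minus strand): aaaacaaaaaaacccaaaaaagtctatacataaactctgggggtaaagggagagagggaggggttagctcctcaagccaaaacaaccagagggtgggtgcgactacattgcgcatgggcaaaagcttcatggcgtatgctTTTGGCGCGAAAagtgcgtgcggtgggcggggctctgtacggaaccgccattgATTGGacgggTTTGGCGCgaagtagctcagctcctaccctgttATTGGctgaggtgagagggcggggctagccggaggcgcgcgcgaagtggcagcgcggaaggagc
Mcm7 (GRCm38.p6, chr5:138171834-138172133, minus strand): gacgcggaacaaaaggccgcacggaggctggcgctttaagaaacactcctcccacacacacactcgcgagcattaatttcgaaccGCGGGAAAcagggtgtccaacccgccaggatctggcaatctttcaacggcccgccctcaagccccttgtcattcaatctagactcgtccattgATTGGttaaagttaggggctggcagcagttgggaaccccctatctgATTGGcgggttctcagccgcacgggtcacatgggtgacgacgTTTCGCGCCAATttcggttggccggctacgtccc
Mcm3 (GRCm38.p6, chr1:20820263-20820562, minus strand): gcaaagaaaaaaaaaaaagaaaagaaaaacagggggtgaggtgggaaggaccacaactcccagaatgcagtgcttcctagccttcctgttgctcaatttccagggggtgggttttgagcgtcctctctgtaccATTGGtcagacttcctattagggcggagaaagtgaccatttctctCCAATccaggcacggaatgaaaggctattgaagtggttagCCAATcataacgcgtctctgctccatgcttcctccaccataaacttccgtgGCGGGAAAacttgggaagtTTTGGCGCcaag
Rpa2 (GRCm38.p6, chr4:132768110-132768409, plus strand): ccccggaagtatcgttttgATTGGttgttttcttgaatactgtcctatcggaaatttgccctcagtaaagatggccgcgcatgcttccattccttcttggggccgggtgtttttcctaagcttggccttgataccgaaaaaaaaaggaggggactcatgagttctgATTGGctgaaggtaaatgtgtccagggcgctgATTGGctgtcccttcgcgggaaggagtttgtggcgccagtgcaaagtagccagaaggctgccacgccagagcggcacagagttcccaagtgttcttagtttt

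All 4 members that act in helicase activation had a lower mean in ENT1KO, and 1 of them passed, where 23.1% of all genes tested passed as lower. This covers the members only. Of the other replication factors, Topbp1, Donson and Dbf4 passed in the other direction (log2 0.67, 0.73 and 0.58, limma adjusted p = 0.00659, 0.00547 and 0.02). Cdc7, Ticrr and Gins3 had positive differences that did not pass (0.495, 0.28 and 0.11). Those of Gins4 and Recql4 were negative and did not pass (-0.066 and -0.038). Gins2, a subunit of the GINS complex (chromosome 8, 121305372 to 121316043, GRCm39), stood at 19.9, 18.1, 35.6 and 28.97 TPM in ENT1KO, against 39.5, 41.2 and 38.95 TPM in WT. Each ENT1KO value lay below each WT value. The log2 difference was -0.67 with a standard error of 0.22 (limma adjusted p = 0.0347), and the call was lost on leaving out any single one of ENT1KO replicates 11 and 12 and WT replicates 1, 2 and 3 (limma adjusted p between 0.0673 and 0.0992). Gins1, its partner, was at 12.8 ± 3.56 TPM in ENT1KO and 15.4 ± 0.793 TPM in WT (SD, n = 4 and 3) and did not pass (limma adjusted p = 0.253). The ratio of Gins2 to Gins1 within a library ran from 1.82 to 2.16 in ENT1KO and from 2.53 to 2.69 in WT, without overlap.

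Cdc45, which forms the active helicase with GINS and the Mcm ring, stood at 14.35, 16.3, 23.8 and 23.5 TPM in ENT1KO, against 28.7, 28.1 and 24.5 TPM in WT. The groups did not overlap, but the difference of -0.48 missed the threshold (limma adjusted p = 0.0624) and passed without ENT1KO replicate 14 or 15 (0.0373 and 0.0432) and on log2 normalized counts (limma adjusted p = 0.0267). Mcm10, a further activation factor, ranged from 7.19 to 14.7 TPM in ENT1KO and from 9.25 to 14.04 TPM in WT, and the ranges overlapped almost fully.

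None of the 5 polymerase and primase genes passed. Pola1 and Pola2, subunits of the priming polymerase alpha, had differences of 0.04 and 0.07, and Prim1, the catalytic subunit of primase, one of 0.18. Pole, the catalytic subunit of the leading-strand polymerase, stood at 18.2, 20.5, 31.7 and 30.4 TPM in ENT1KO and 22.5, 17.4 and 19.7 TPM in WT. Pold1, that of the lagging-strand polymerase, stood at 27.9, 26.0, 45.5 and 42.5 TPM in ENT1KO and 30.0, 23.6 and 27.9 TPM in WT. For both genes ENT1KO replicates 14 and 15 lay above all WT libraries and the other ENT1KO replicates lay within the WT range. Their 95% intervals reached from -0.18 to 0.78 and from -0.15 to 0.83.

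None of the 4 genes of the sliding clamp and its loader passed. Pcna, the clamp and the most abundant member, stood at 319.85, 301.5, 385.1 and 428.05 TPM in ENT1KO, against 321.2, 280.5 and 323.8 TPM in WT, a difference of 0.205 that did not pass (limma adjusted p = 0.253). Of the loader subunits, Rfc2 averaged 127.6 ± 11.9 TPM in ENT1KO and 108.9 ± 8.54 TPM in WT (SD, n = 4 and 3), with a positive difference of 0.225. Rfc3 stood at 24.3, 28.7, 38.6 and 29.5 TPM in ENT1KO, against 43.1, 39.3 and 36.7 TPM in WT, and ENT1KO replicate 14 alone reached into the WT range. Its difference of -0.40 did not pass (limma adjusted p = 0.0604) but did without ENT1KO replicate 14 (0.0138). Rfc4 had a difference of -0.30 (limma adjusted p = 0.123).

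Rpa2 had the largest difference of the members on the log2(TPM + 1) scale. On log2 normalized counts Gins2 lay further from 0, at -0.82 beside 0.65 for Rpa2, and likewise after quantile normalization, at -0.76 beside 0.675. Replication protein A coats single-stranded DNA at the fork as a trimer of Rpa1, Rpa2 and Rpa3, and Rpa2 is the subunit phosphorylated in the replication stress response. Rpa2 (chromosome 4, 132495643 to 132506063, GRCm39) stood at 70.9, 79.4, 69.9 and 86.4 TPM in ENT1KO, against 43.3, 35.9 and 51.6 TPM in WT. Every ENT1KO library lay above every WT library, and replicate 14, the highest ENT1KO library for most members, held the lowest ENT1KO value. The difference was 0.81 with a standard error of 0.14 and a 95% interval from 0.485 to 1.13 (limma adjusted p = 0.00313), and it passed whichever single library was left out. Its log2 fold change in the authors' deposited table was 0.65 (adjusted p = 0.000496), beside -0.78 for Gins2 in the authors' deposited table (adjusted p = 0.00824).

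The other subunits did not pass. Rpa1 had a positive difference of 0.23 (95% interval from -0.035 to 0.495) and Rpa3 a negative one of -0.14 (from -0.46 to 0.17). Rpa1, the large DNA-binding subunit, stood at 97.5, 94.6, 105.3 and 115.7 TPM in ENT1KO and 86.7, 79.2 and 98.1 TPM in WT (limma adjusted p = 0.127). Rpa3, the small subunit, stood at 49.97, 54.3, 62.5 and 58.9 TPM in ENT1KO and 72.0, 65.15 and 51.4 TPM in WT (limma adjusted p = 0.402). The ratio of Rpa2 to Rpa1 within a library ran from 0.664 to 0.8395 in ENT1KO and from 0.454 to 0.526 in WT, without overlap, while that of Rpa3 to Rpa1 ran from 0.509 to 0.594 in ENT1KO and from 0.523 to 0.831 in WT. The subunit ratios given here were chosen after the values were seen and were not tested.

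Fen1, the flap endonuclease, and Lig1, the ligase that seals Okazaki fragments, did not pass, with differences of 0.15 and 0.16. Ribonucleotide reductase makes the deoxynucleotides for replication from ribonucleotides, and its subunits did not pass either. Rrm1, the large subunit, stood at 54.8, 58.3, 83.9 and 86.7 TPM in ENT1KO and 76.3, 77.15 and 69.85 TPM in WT. Rrm2, the small subunit that is made in S phase, stood at 54.0, 49.5, 77.3 and 97.9 TPM in ENT1KO and 70.0, 69.5 and 59.45 TPM in WT. For both genes the ENT1KO values lay on either side of the WT range. The differences were -0.10 and 0.02, with 95% intervals from -0.51 to 0.31 and from -0.51 to 0.55.

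Of 4 members linked to the chromatin of new DNA, 1 passed as higher (Slbp) and 1 as lower (Chaf1a). Of all genes tested, 27.5% passed as higher and 23.1% as lower. Chaf1a and Chaf1b are subunits of chromatin assembly factor 1, which places histones H3 and H4 behind the fork. Chaf1a (chromosome 17, 56347439 to 56379289, GRCm39) stood at 12.8, 14.6, 20.1 and 14.3 TPM in ENT1KO, against 23.1, 27.4 and 22.0 TPM in WT, with no overlap. The difference was -0.63 with a standard error of 0.16 (limma adjusted p = 0.0142, and 0.0524 without WT replicate 2). Chaf1b stood at 26.1, 27.3, 31.75 and 34.2 TPM in ENT1KO and 26.9, 26.6 and 28.6 TPM in WT (limma adjusted p = 0.444). The ratio of Chaf1a to Chaf1b ran from 0.418 to 0.633 in ENT1KO and from 0.769 to 1.03 in WT.

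Slbp binds the stem-loop of replication-dependent histone mRNAs and is needed for their processing and translation. Slbp (chromosome 5, 33792296 to 33809918, GRCm39) stood at 134.9, 127.6, 157.45 and 156.8 TPM in ENT1KO, against 110.1, 80.3 and 119.85 TPM in WT. The groups did not overlap, and the difference was 0.49 with a standard error of 0.16 (limma adjusted p = 0.0311). The call was lost on leaving out any single one of ENT1KO replicates 11, 14 and 15 and WT replicates 1 and 2 (limma adjusted p between 0.051 and 0.0854), after quantile normalization (0.0715) and on log2 normalized counts (0.0507). Uhrf1, which carries DNA methylation onto the new strand, did not pass, at 45.7 ± 9.76 TPM in ENT1KO and 52.8 ± 4.74 TPM in WT (SD, n = 4 and 3).

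**Figure D3:**
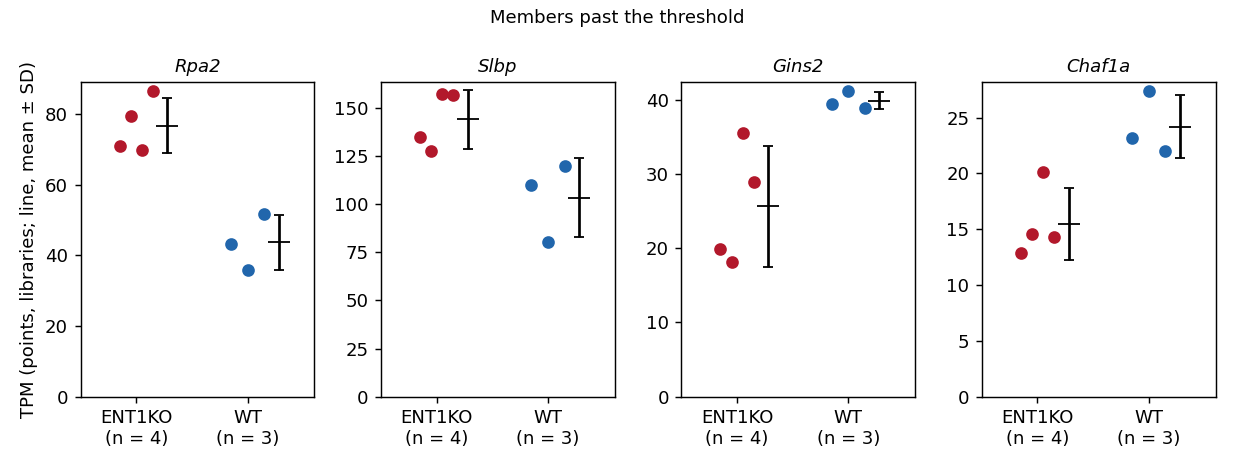
Level in TPM (y axis, from 0) of the 4 members past the threshold, with each point a library (ENT1KO red, n = 4; WT blue, n = 3) and the black line the mean ± SD. Rpa2 and Slbp lie higher and Gins2 and Chaf1a lower in ENT1KO, with no overlap between the groups.

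The remaining members did not pass. Ung, a uracil glycosylase that clears uracil from new DNA, stood at 12.6, 13.2, 24.9 and 17.0 TPM in ENT1KO and 14.15, 11.4 and 15.2 TPM in WT, and ENT1KO replicate 14 stood well above the rest. Msh6, a mismatch repair sensor, averaged 19.9 ± 2.202 TPM in ENT1KO and 23.1 ± 3.14 TPM in WT (SD, n = 4 and 3), with a difference of -0.20 (limma adjusted p = 0.229). On log2 normalized counts it passed, at -0.36 (limma adjusted p = 0.0292). Tipin, a fork protection factor, had a difference of -0.02. Clspn, the adaptor through which ATR activates Chek1, stood at 19.8, 18.3, 22.5 and 25.0 TPM in ENT1KO and 20.3, 11.9 and 15.1 TPM in WT. Only WT replicate 1 reached the ENT1KO values, and the difference of 0.44 did not pass (limma adjusted p = 0.081) but did without that library (0.0243).

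Among the G1/S regulators, E2f1, an activator of these genes, stood at 10.5, 11.65, 19.3 and 17.5 TPM in ENT1KO, against 18.7, 20.4 and 16.85 TPM in WT, and shared the low values of ENT1KO replicates 11 and 12. Its difference of -0.36 did not pass (limma adjusted p = 0.19). The E-type cyclins, which drive S phase entry with Cdk2, differed in sign. Ccne1 stood at 14.65, 13.9, 15.8 and 24.4 TPM in ENT1KO and 14.7, 14.0 and 17.4 TPM in WT. Ccne2 stood at 10.6, 9.38, 13.5 and 9.41 TPM in ENT1KO and 14.4, 12.6 and 12.52 TPM in WT. Neither passed (limma adjusted p = 0.611 and 0.15).

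Other scales shifted the members. On log2 normalized counts the median of all genes lay lower by 0.145 than on TPM, and there 1 member passed as higher (Rpa2) and 5 as lower (Gins2, Chaf1a, Cdc45, Rfc3 and Msh6), where 48.9% of all genes passed, 21% higher and 28% lower. In the authors' deposited table, 1 member (Rpa2) had an adjusted p under 0.05 with a positive fold change and 5 (Cdc45, Gins2, Rfc3, Chaf1a and Msh6) with a negative one, where 42.3% of the 18878 genes with an adjusted p passed, 16.5% with a positive and 25.8% with a negative one. Relative to the mean of the CD8 T cell identity genes (log2), which was itself 1.15 higher in ENT1KO, all 39 members had negative differences, with a median of -1.04 beside -1.004 for all genes. On that scale 23 members lay below WT without overlap and 0 above, where 64.2% of all genes lay below and 0.326% above (64.5% in all). Relative to the mean of the 39 members in each library, a scale added after the data were seen, 6 members lay above WT without overlap (Mcm2, Mcm4, Pold1, Rpa2, Lig1 and Slbp) and 8 below (Cdc45, Gins2, Rfc3, Rfc4, Chaf1a, Uhrf1, E2f1 and Ccne2), where 16.9% of all genes lay above and 22.7% below (39.5% in all). No test was made on the identity and member scales, since every gene shares the spread of the list subtracted.

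Of 40 other replication factors 7 were higher (17.5%) and 0 lower, with a median difference of 0.15. Of all genes tested 27.5% were higher and 23.1% lower, and every list share below stands beside these. The count lower at an unadjusted limma p under 0.05 was 0. Orc3, an origin recognition subunit, was at 61.0 ± 7.04 TPM in ENT1KO and 34.55 ± 7.04 TPM in WT (log2 0.81, limma adjusted p = 0.00376). Topbp1, which joins helicase activation and checkpoint signalling, was at 82.7 ± 9.196 TPM in ENT1KO and 52.0 ± 8.82 TPM in WT (log2 0.67, limma adjusted p = 0.00659), and Donson, a replisome factor, rose by 0.73 (limma adjusted p = 0.00547). Top2a, the S to M phase topoisomerase, and Pole4, a polymerase epsilon subunit, did not pass, with differences of 0.15 and 0.215. All these values are means with SD over 4 ENT1KO and 3 WT libraries.

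Of 11 other S phase nucleotide enzymes, 2 were higher (18.2%) and 0 lower, with 1 lower at an unadjusted limma p under 0.05. Samhd1, which breaks down deoxynucleotides and is abundant outside S phase, was at 312.9 ± 29.5 TPM in ENT1KO and 181.8 ± 32.3 TPM in WT (log2 0.79, limma adjusted p = 0.00324). Rrm2b, the p53-inducible reductase subunit that serves cells outside S phase, was at 16.1 ± 3.35 TPM in ENT1KO and 9.84 ± 2.2 TPM in WT (log2 0.655, limma adjusted p = 0.0261). Its call was lost on leaving out ENT1KO replicate 11 or 12 or WT replicate 2 or 3 (limma adjusted p between 0.0541 and 0.0919). Tyms, the thymidylate synthase of S phase, did not pass, at 66.7 ± 19.2 TPM in ENT1KO and 90.7 ± 7.57 TPM in WT (log2 -0.48, limma adjusted p = 0.0865, and 0.0209 without ENT1KO replicate 15). Shmt1, a one-carbon enzyme, and Dut, the dUTPase, did not pass either, with differences of -0.42 and 0.02, though Shmt1 did without ENT1KO replicate 14 (limma adjusted p = 0.0117). Values are over 4 ENT1KO and 3 WT libraries.

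Of 29 other G1/S control genes 6 were higher (20.7%) and 7 lower (24.1%). Ccnd2, a D-type cyclin of lymphocytes, was at 139.6 ± 19.2 TPM in ENT1KO and 70.05 ± 17.9 TPM in WT (log2 1.004, limma adjusted p = 0.00352), and Ccnd3 passed at 0.465 (limma adjusted p = 0.0449). The Ccnd3 groups overlapped, and its call was lost on log2 normalized counts (0.27, limma adjusted p = 0.267), after quantile normalization (0.124) and on leaving out any of ENT1KO replicates 12, 14 and 15 and WT replicates 1 and 2 (between 0.0613 and 0.144). Ccnd1, a further D-type cyclin, passed as lower, at 7.0 ± 6.47 TPM in ENT1KO and 88.6 ± 31.7 TPM in WT (log2 -3.77, limma adjusted p = 0.0024). Cdk4, the kinase partner of these cyclins, was lower, at 227.0 ± 37.4 TPM in ENT1KO and 409.3 ± 62.8 TPM in WT (log2 -0.85, limma adjusted p = 0.00399). The CDK inhibitors Cdkn1a and Cdkn2b had differences of -1.50 and -3.16 (both limma adjusted p = 0.00121). Cdkn2b stood at 1.35, 1.47, 4.09 and 0.96 TPM in ENT1KO, highest in replicate 14, which also had the highest fibroblast and tumour sum of that group, against 25.8, 31.1 and 16.45 TPM in WT. Of 16 replication checkpoint genes 1 was higher (6.25%) and 0 lower, with 0 lower at an unadjusted limma p under 0.05. Atr, the replication stress kinase, was at 17.6 ± 2.9 TPM in ENT1KO and 9.96 ± 3.21 TPM in WT (log2 0.79, limma adjusted p = 0.0143, and 0.0521 without WT replicate 2). The count of checkpoint genes higher was 0 without WT replicate 2, with 1 at an unadjusted limma p under 0.05, 5 without WT replicate 1, 2 without ENT1KO replicate 12 and on normalized counts, and 6 after quantile normalization. Usp1, Rad17 and Rad9a did not pass, with differences of 0.32, 0.33 and 0.16, though Usp1 and Rad17 did without WT replicate 1 (limma adjusted p = 0.0349 and 0.0377).

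**Figure D4:**
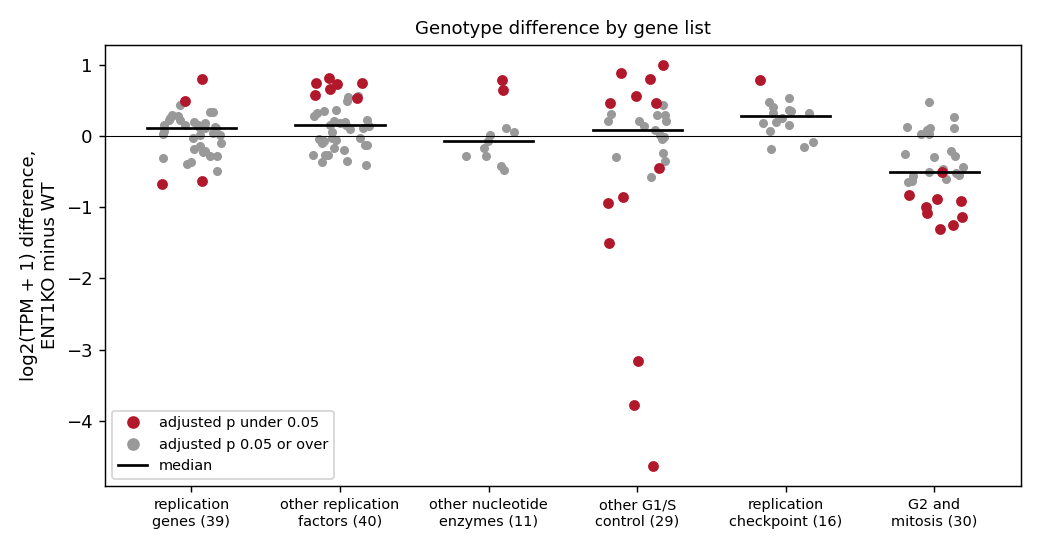
Difference in log2(TPM + 1), ENT1KO minus WT (y axis), of every tested gene of the replication genes and of 5 further lists (x axis, number of genes in brackets); red marks an adjusted p under 0.05 and bars are list medians. The replication genes lie between -0.67 and 0.81 with their median at 0.11, while the G2 and mitosis list has its median at -0.505.

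Of 30 genes of G2 and mitosis, which act after replication, 0 were higher and 9 lower (30%), with a median of -0.505. At an unadjusted limma p under 0.05, 12 were lower and 1 was higher, Mki67 (log2 0.48, limma adjusted p = 0.0679). The count lower was 18 without ENT1KO replicate 15 and with array weights, 5 without WT replicate 2 and 6 without ENT1KO replicate 11 or 12 or WT replicate 1, and 1 gene was higher without WT replicate 1. Cdk1, the mitotic kinase, stood at 43.0, 58.1, 81.6 and 82.9 TPM in ENT1KO, against 139.1, 181.4 and 112.6 TPM in WT (log2 -1.13, limma adjusted p = 0.00849). Ccnb1, its cyclin, stood at 10.4, 14.5, 16.2 and 18.6 TPM in ENT1KO, against 33.15, 44.9 and 31.8 TPM in WT (log2 -1.25, limma adjusted p = 0.00253). Both had no overlap between the groups and had their lowest value in ENT1KO replicate 11. Aurka fell by 1.304 on the log2 scale (limma adjusted p = 0.00296), while Cenpa and Ncapd2 did not pass. The list summed to 683, 752, 894 and 1090 TPM in ENT1KO replicates 11, 12, 14 and 15 and to 1132, 1262 and 956 TPM in WT replicates 1, 2 and 3. WT replicate 2, with the highest mitotic sum, had the lowest replication gene sum of the WT libraries and the highest fibroblast and tumour sum, and the part of other cell types in either sum was not tested. Whether the difference between the replication and mitosis lists is larger than the spread was not tested.

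**Figure D5:**
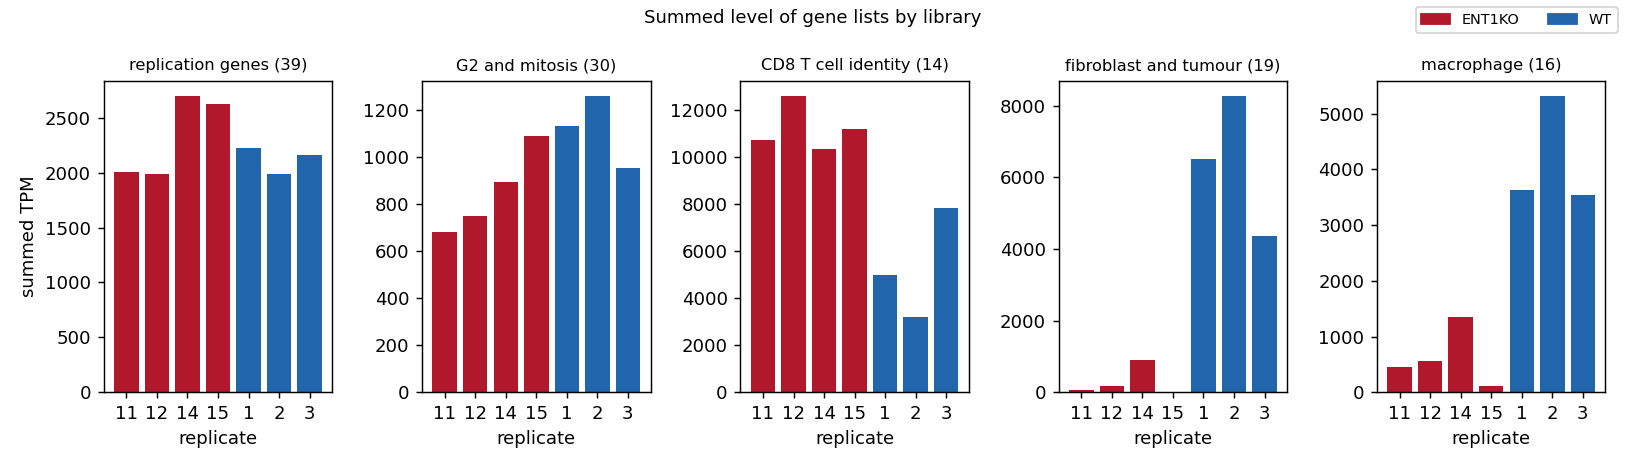
Summed TPM (y axes, each from 0) of 5 gene lists in each library (x axes, replicate), ENT1KO in red left of WT in blue; the number of genes is in brackets and the fibroblast and tumour list is shown without S100a4. The replication genes sum to 1989 to 2700 TPM in ENT1KO and 1989 to 2224 TPM in WT, while the fibroblast and tumour and the macrophage lists lie lower in ENT1KO without overlap.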

How the data were processed

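RNA-seq of poly(A) RNA was made from the sorted CD8 T cells of 4 ENT1KO and 3 WT samples, grouped by the genotype in the labels. The authors deposited TPM per gene (a share of transcripts with an equal total per library). They also deposited a signal per gene that holds gene counts divided by a size factor per sample, called normalized counts here. The authors' comparison gives log2 fold changes, a score (its test statistic), and raw and adjusted p-values, per the file headers. Trimmomatic 0.35 and 0.38, STAR 2.7.1a, RSEM, DESeq, DESeq2 1.30.1 and the build GRCm39 are named in the submitters' processing notes, without roles. These sources name no annotation release.

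The filter kept the 13798 genes that reached 1 TPM in 3 or more libraries. Differences were taken on log2(TPM + 1), a scale that understates the change of low genes, and tested with limma-trend with robust empirical Bayes (limma 3.58.1, R 4.3.3), with no term but genotype, and Benjamini-Hochberg adjusted over all genes kept, at 0.05. Tables and figures were made with Python 3.11.15, pandas 2.3.3, numpy 2.4.6 and matplotlib 3.10.9. The fit was run on simulated data with independent noise and few changed genes. That run does not test the calls made here, where many genes differ together. Within a tolerance of 0.01, 100.0% of the normalized counts of each library were whole multiples of its smallest step, which gave the read totals. No count test was run on those reads, and limma on log2(normalized count + 1) stands in its place. Depth limits the lowest levels only, and TPM carries no counting interval here.

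Cd4, Foxp3, Klra4, Klra8, Dbf4, Cdc7, Ticrr, Gins3, Gins4, Recql4, Ccnd1 and Mki67 were named outside the rule for naming genes. The rule named all 39 members, Slc29a1 and the 2 most abundant genes of each marker list. From each further list it named the 3 most abundant genes and the 2 others with the smallest p. A further gene that this rule names is not reported here. Members and lists were chosen with earlier results of these data known. Subunit ratios, the promoters of Mcm6, Mcm7 and Mcm3, levels relative to the mean of the members and the sum without Pcna were added after the data were seen. Alternatives were other pseudocounts and filters, quantile normalization, array weights, normalized counts, marker lists as covariates and leaving out each library.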

Additional observations from a re-analysis of the deposited data

Results flagged for a closer look

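Cdkn2b, a CDK4 and CDK6 inhibitor among the further G1/S control genes, had 1 ENT1KO library apart from the others. It stood at 4.09 TPM in ENT1KO replicate 14, against 1.35, 1.47 and 0.96 TPM in ENT1KO replicates 11, 12 and 15. The gap to the nearest library was 0.837 of the group's whole range, above the 95% critical value of Dixon's test for 4 samples. Of 65 genes examined 1 stood apart in this way, and chance gives about 1 in 20 groups. The fibroblast and tumour list without S100a4 was also highest in that library, at 908 TPM, and its part in the value was not tested.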

How the results depend on the processing

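Differences are log2, ENT1KO minus WT, and the cause of each change below was not tested. No paired analysis was possible because the ENT1KO and WT samples share no replicate number. Other pseudocounts and a 5 TPM filter left the member calls at 2 higher and 2 lower. Members called numbered 1 higher and 4 lower after quantile normalization, where 33.0% of all genes passed as higher and 22.95% as lower. They numbered 1 and 1 with any gene above 0 kept, beside 11.6% and 14.3% of all genes. With array weights they numbered 2 and 7, beside 29.1% and 25.1%, and on normalized counts 1 and 5, beside 21% and 28%. Leaving out each library gave 1 to 4 higher and 0 to 4 lower, beside 16.8% to 27.2% and 18.3% to 22.8% of all genes. The 0 came without WT replicate 2, with 2 lower at an unadjusted limma p under 0.05. With the fibroblast and tumour or the macrophage covariate in limma, which move with genotype, 0 members and 0 genes of the further lists passed in either direction, and of all genes 0 higher and 0 lower or 1 higher and 2 lower. Slc29a1 was then at -1.49 and -1.56 and missed the threshold. Leaving out each library gave 2315 to 3748 genes higher and 2525 to 3145 lower of all genes, 11 to 25 higher and 11 to 27 lower of the further lists, and Slc29a1 at -1.86 to -1.705. Array weights gave 31 lower of the further lists, beside 16 in the main result. Members without overlap numbered 1 above and 5 below after quantile normalization, 5 below on normalized counts, 6 above and 8 below relative to the members' mean, and 3 to 5 above and 3 to 6 below without single libraries. Of all genes 30.3% lay above and 24.9% below in the main result, and 16.9% and 22.7% relative to the members' mean. No such share is given here for the other settings. The summed member difference ran from 82.9 to 319.7 TPM and the median relative to the identity list from -1.44 to -0.83 without single libraries. Without the first T of the E2F site, 68.75% of members and 19.4% of tested genes matched. Without Pcna the summed member difference was 155.7 TPM, beside 205.9 TPM with it.

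Only members and further genes that had not passed changed sign. With array weights these were Cdc6 at -0.15, Mcm3 at -0.091, Pola1 at -0.16, Pola2 at -0.017, Rrm2 at -0.125, Top2a at -0.051, Dut at -0.053 and Ncapd2 at -0.019. On normalized counts they were Cdc6 at -0.215, Mcm3 at -0.054, Mcm5 at -0.085, Mcm7 at -0.10, Pola1 at -0.17, Pola2 at -0.085, Fen1 at -0.009, Lig1 at -0.015, Rrm2 at -0.20, Ccne1 at -0.032, Top2a at -0.049, Dut at -0.14 and Ncapd2 at -0.094. After quantile normalization they were Mcm3 at -0.12, Mcm5 at -0.027, Mcm7 at -0.048, Pola2 at -0.043, Rrm2 at -0.13, Dut at -0.14, Cenpa at -0.012 and Ncapd2 at -0.026. With the fibroblast and tumour covariate they were Cdc6 at -0.057, Cdt1 at -0.01, Mcm10 at 0.35, Gins1 at 0.10, Rfc3 at 0.10, Rpa3 at 0.064, Rrm2 at -0.26, Tipin at 0.082, Ccne1 at -0.55, Ccne2 at 0.19, Top2a at -0.025, Shmt1 at 0.277 and Ncapd2 at -0.141. With the macrophage covariate they were Cdc6 at -0.22, Cdt1 at -0.021, Mcm3 at -0.015, Mcm10 at 0.063, Pcna at -0.073, Rpa1 at -0.004, Rrm2 at -0.415, Chaf1b at -0.057, Ccne1 at -0.59, Ccne2 at 0.12, Top2a at -0.203, Dut at -0.01, Shmt1 at 0.098, Rad9a at -0.06 and Ncapd2 at -0.273. Without single libraries Cdc6 ran from -0.096 to 0.117, Mcm3 from -0.113 to 0.142, Mcm5 from -0.012 to 0.213, Pola1 from -0.082 to 0.175, Pola2 from -0.034 to 0.141, Rrm1 from -0.203 to 0.015, Rrm2 from -0.159 to 0.165, Tipin from -0.099 to 0.072, Ccne1 from -0.047 to 0.212, Top2a from -0.002 to 0.258, Dut from -0.041 to 0.099 and Ncapd2 from -0.025 to 0.214.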
